A study of Drosophila melanogaster with 4 samples.

Results

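The Bomanin genes described here are the 10 whose entries carry the older symbols IM1, IM2, IM3, IM23, CG18107, CG15065, CG15067, CG15068, CG16836 and CG5791, out of 16489 gene symbols counted in adult heads of Drosophila melanogaster. They were picked by name, and all 10 passed the filter on low counts, as did 10896 genes in all. Heads labelled GMR>yki S168A (n = 2 libraries) were compared with heads labelled GMR-Gal4 (control, n = 2 libraries). GMR-Gal4 is a transgenic driver active in the developing eye, carried by both groups, and in the first group it drove an activated Yorkie, the transcriptional co-activator restrained by the Hippo pathway, in what the series calls tumor head tissue. Each library was made from the RNA of 30 whole heads, so cells outside the eye were sampled too. The labels give neither age nor sex, and effects of Yorkie, of the inserted transgene and of stock background cannot be told apart. Fewer cells of a type and less RNA per cell cannot be told apart in whole heads either. The labels do not tie the libraries to separate cultures, so p-values here cover the spread among these libraries alone, and that spread may be technical.

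Bomanins are small secreted peptides made mainly by the fat body, the insect counterpart of liver and adipose tissue, and released into the hemolymph. Their genes are induced through the Toll pathway, in which microbial recognition proteins start a protease cascade that cleaves the ligand Spätzle, and the receptor Toll then frees the NF-kappaB factors Dif and Dorsal. Flies lacking the main gene cluster survive certain bacterial and fungal infections poorly. The peptides come in short forms (BomS, little more than 1 Bomanin motif), tailed forms (BomT, a motif followed by a C-terminal tail) and bicipital forms (BomBc, a pair of motifs joined by a linker).

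By current name, 6 members encode short forms: IM1 (BomS1), IM2 (BomS2), IM3 (BomS3), CG18107 (BomS4), CG15065 (BomS5) and CG15068 (BomS6). The bicipital forms are IM23 (BomBc1), CG15067 (BomBc2) and CG5791 (BomBc3), and CG16836 (BomT2) is tailed. The family has 2 further genes in the annotation, the tailed CG43202 (BomT1) and CG5778 (BomT3). Annotated coding length ran from 117 to 135 bases in the short members and from 294 to 462 bases in the bicipital ones, and was 228 bases in CG16836. Of the members, 9 lie with CG43202 in a cluster of 9237 bases on chromosome arm 2R (chr2R:18381393-18390629, build dm6) that holds no other annotated gene. CG5791 lies on chromosome arm 3R (22087075 to 22088501, plus strand), beside CG5778 (22085374 to 22086397, minus strand).

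In yki S168A heads 9 of the 10 Bomanin genes rose, by 2.20-fold to 54.2-fold, and CG15068 did not pass the test. All 9 rose by more than 2-fold. These calls are from edgeR's quasi-likelihood test at a Benjamini-Hochberg adjusted p below 0.05. By the same rule 15.1% of all tested genes were higher, 12.5% were lower, and 8.14% were higher by over 2-fold. The median log2 fold change of the members was 2.41, beside 0.01 over all tested genes. Among all genes tested, 1647 were higher and 1359 lower, and this split depended on scaling, with 1276 higher and 1924 lower under upper-quartile factors and 1356 and 1679 under library totals alone. Those scalings moved the median of all genes to −0.15 and −0.10, and that of the members to 2.25 and 2.30, with 9 members called higher under each. CG15067 had a log2 fold change of 0.98 under upper-quartile factors, slightly less than 2-fold.

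**Figure D1:**
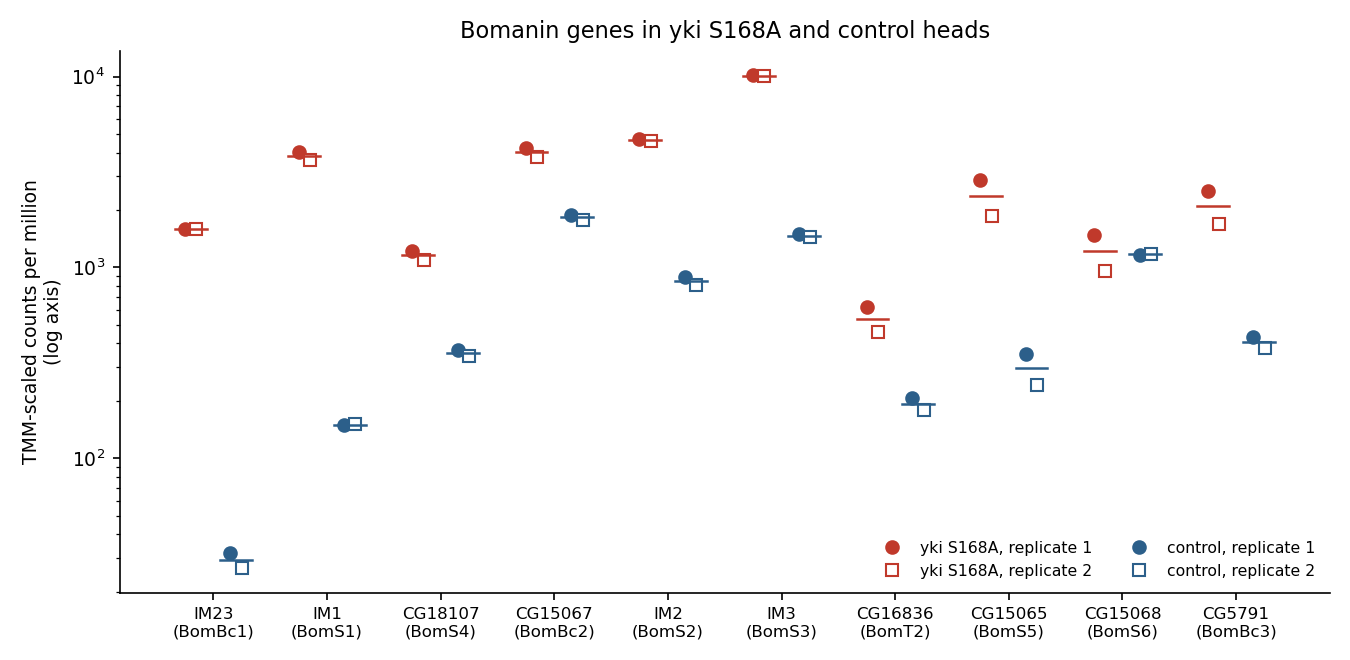
TMM-scaled CPM (read counts relative to the library total, log axis) of the 10 Bomanin genes, with yki S168A libraries left and control libraries right for each gene, circles for replicate 1, squares for replicate 2 and bars for the mean of each group. The groups overlap for CG15068 (1484 and 955 CPM in yki S168A heads, 1165 and 1178 CPM in control heads).

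The short form IM1 (chr2R:18383949-18384378, plus strand) had 4043 and 3644 CPM in yki S168A heads, against 149 and 151 CPM in control heads. CPM are read counts relative to the library total, scaled by edgeR's TMM factors, which correct library totals for composition. Both yki S168A libraries were far above both controls. IM1 averaged 3844 ± 282 CPM in yki S168A and 150.04 ± 0.91 CPM in control heads (SD, n = 2 each). The log2 fold change was 4.68 with an SE of 0.21 (adjusted p = 7.49e-08), a rise of 25.6-fold (95% interval 18.6 to 35.2).

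IM2 (chr2R:18386602-18387030, plus strand) had 4684 and 4598 CPM in yki S168A heads and 894 and 812 CPM in control heads. It rose 5.44-fold (95% interval 4.01 to 7.38, adjusted p = 6.12e-06). IM3 (chr2R:18387895-18388734, plus strand) had 10148 and 10056 CPM in yki S168A heads, against 1493 and 1447 CPM in control heads. IM3 rose 6.87-fold (95% interval 4.78 to 9.89, adjusted p = 8.89e-06). In IM2 and IM3 the libraries of a group lay close together, and the groups were well apart. IM1, IM2 and IM3 encode closely similar peptides. How reads matching several copies were counted is not given in the sources used here, so the division of reads among the short members is uncertain.

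The remaining short members ran from no call to a rise larger than that of IM3. CG18107 (chr2R:18384567-18384911, plus strand) had 1214 and 1100 CPM in yki S168A heads and 368 and 343 CPM in control heads, a 3.26-fold rise (95% interval 2.56 to 4.14, adjusted p = 1.47e-05). CG15065 (chr2R:18389959-18390242, plus strand) had 2879 and 1851 CPM in yki S168A heads and 353 and 242 CPM in control heads. It rose 7.94-fold (95% interval 5.36 to 11.8, adjusted p = 9.10e-06), and its replicates were 1.56-fold apart in yki S168A and 1.46-fold apart in control libraries, the widest gaps among the members.

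CG15068 (chr2R:18390353-18390629, minus strand) was the exception among the short forms. It had 1484 and 955 CPM in yki S168A heads and 1165 and 1178 CPM in control heads, so the control libraries lay between the yki S168A ones. The means were 1219 ± 374 CPM in yki S168A heads and 1172 ± 8.94 CPM in control heads (SD, n = 2 each). The test gave 0.06 with an SE of 0.21 on the log2 scale (adjusted p = 0.876), and the 95% interval of the fold ran from 0.758 to 1.43. Leaving out yki S168A replicate 1 made the log2 fold change −0.30 (adjusted p = 0.0951), and leaving out yki S168A replicate 2 made it 0.34 (adjusted p = 0.0536). It was also negative with upper-quartile factors (−0.10) and with library totals alone (−0.056). The test left CG15068 uncalled in all 14 other fits, and a rise as large as the 2.20-fold of CG15067 is outside its interval.

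Of the bicipital forms, IM23 (chr2R:18382704-18383235, minus strand) had 1588 and 1584 CPM in yki S168A heads, against 31.9 and 26.6 CPM in control heads. This was the largest fold among the members, 54.2-fold (95% interval 40.2 to 73.2, adjusted p = 1.85e-08), and it stood at place 24 among all tested genes by log2 fold change. The control values rest on 558 and 433 reads, well above the minimum count of 10 set in the filter on low counts. CG5791 had 2519 and 1680 CPM in yki S168A heads and 431 and 379 CPM in control heads. It rose 5.19-fold (95% interval 3.73 to 7.22, adjusted p = 1.39e-05).

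CG15067 (chr2R:18384824-18385589, minus strand) rose least of the called members, with 4244 and 3813 CPM in yki S168A heads and 1883 and 1780 CPM in control heads. Its change was 2.20-fold (95% interval 1.63 to 2.96, adjusted p = 0.00139). Leaving out control replicate 1 (adjusted p = 0.0890) or control replicate 2 (adjusted p = 0.112) ended this call, at log2 fold changes of 1.18 and 1.097. CG15067 and CG18107 overlap tail to tail by 88 exonic bases on opposite strands, which is 12.4% of the exonic bases of CG15067 and 31.3% of those of CG18107. Whether the counting used strand is not given in the sources used here, so reads in the overlap cannot be assigned. No other Bomanin gene shares exonic bases with an annotated gene. The tailed CG16836 (chr2R:18388995-18389443, plus strand) had 621 and 457 CPM in yki S168A heads and 207 and 178 CPM in control heads, a 2.80-fold rise (95% interval 2.14 to 3.66, adjusted p = 9.66e-05).

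The 2 Bomanin genes outside the set went the same way. CG43202 (chr2R:18381393-18381844, minus strand) had 74.6 and 55.4 CPM in yki S168A heads and 14.7 and 13.9 CPM in control heads, 4.54-fold higher (adjusted p = 1.45e-05). CG5778 had 4160 and 4082 CPM in yki S168A heads and 1541 and 2069 CPM in control heads, 2.28-fold higher (adjusted p = 0.00177). That call needed control replicate 1 (adjusted p = 0.163 in its absence).

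Fold changes varied widely within each form that has several members. Short members ran from 1.04-fold to 25.6-fold and bicipital ones from 2.20-fold to 54.2-fold. Of the 45 pairs of members, 34 had 95% intervals of the fold that did not overlap, and 11 had overlapping ones. These intervals are not adjusted for the number of pairs, and the share among pairs of all tested genes was not computed.

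Neighbors could differ sharply. CG15065 and CG15068 converge with 110 bases between them. Their count ratio, CG15065 over CG15068, was 0.96 and 0.96 on the log2 scale in the yki S168A libraries and −1.72 and −2.28 in the control libraries. CG15065 thus had more reads than CG15068 in both yki S168A libraries and fewer in both control libraries. IM1 and CG18107 lie in tandem 188 bases apart, and their log2 count ratio was 1.74 and 1.73 in yki S168A libraries and −1.30 and −1.19 in control libraries. Such a ratio does not depend on library scaling. CG43202 and IM23, 859 bases apart on the same strand, had a log2 count ratio of −4.41 and −4.84 in yki S168A libraries and of −1.11 and −0.94 in control libraries. IM2 and IM3 kept closer proportions, at −1.12 and −1.13 in yki S168A libraries and −0.74 and −0.83 in control libraries. Of the 9 adjacent pairs in the cluster, 7 had intervals of the fold that did not overlap, beside 34 of all 45 pairs of members. With 2 libraries against 2, an exact two-sided permutation test of any such ratio cannot go below p = 0.333, so none was used as a call.

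Together, the 10 members took 3.18% and 2.89% of all counts in the yki S168A libraries, against 0.726% and 0.677% in the control libraries. In scaled units their sum was 31582 ± 2606 CPM in yki S168A and 6756 ± 309.8 CPM in control heads (SD, n = 2 each), 4.67 times as high. The make-up of this total differed between the groups. IM1 made up 12.1% and 12.3% of the members' reads in yki S168A libraries and 2.14% and 2.31% in control libraries. IM23 made up 4.75% and 5.33% in yki S168A libraries, against 0.457% and 0.407% in control libraries. IM3 held the largest share in yki S168A libraries, 30.4% and 33.8%, against 21.4% and 22.1% in control libraries. CG15067 went the other way, with 12.7% and 12.8% in yki S168A libraries, against 27.0% and 27.2% in control libraries, where it held the largest share. CG15068 held 4.44% and 3.21% in yki S168A libraries and 16.7% and 18.02% in control libraries. CG5791 was the member whose shares overlapped between the groups, at 7.54% and 5.65% in yki S168A libraries and 6.18% and 5.79% in control libraries. Shares of a total depend on each other, so a share can fall while the gene's CPM rises, as for CG15067. With 2 libraries against 2, shares that do not overlap are no test.

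**Figure D2:**
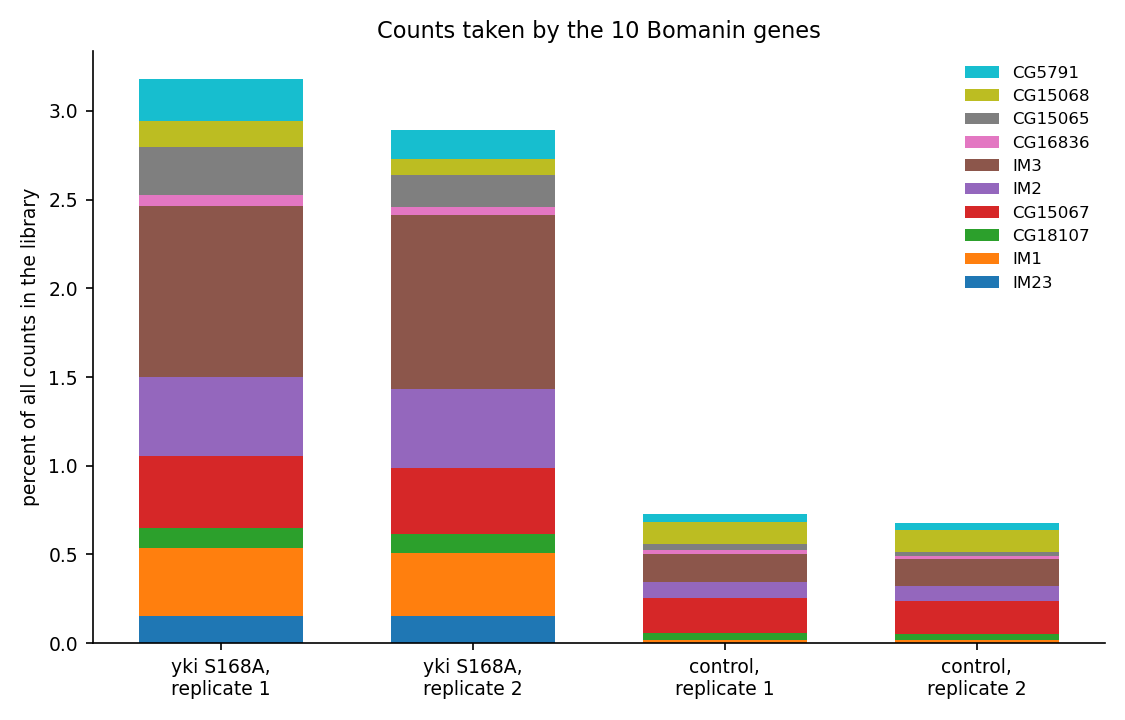
Percent of all counts in each library taken by the 10 Bomanin genes, stacked from the left end of the 2R cluster upwards, with CG5791 of 3R on top. The bars reach 3.18% and 2.89% in the yki S168A libraries and 0.726% and 0.677% in the control libraries.

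Levels of different genes were compared per kilobase of annotated exon. On that scale the yki S168A heads had IM3 at 13137 ± 84.6, IM2 at 12645 ± 165.2, CG15065 at 10849 ± 3334 and IM1 at 10647 ± 782 CPM per kilobase (SD, n = 2). CG15065 overlapped IM3, IM2 and IM1 in these libraries, while IM3 and IM2 were apart. CG15068 at 6158 and CG15067 at 5666 CPM per kilobase followed and overlapped, ahead of CG18107 at 4119 and IM23 at 3389. CG16836 and CG5791 came last, at 1408 ± 302 and 1614 ± 456 CPM per kilobase, and overlapped. In control heads CG15068 came first, at 5918 ± 45.1 CPM per kilobase, ahead of CG15067 at 2576 ± 102.5 and IM2 at 2325 ± 157.2. IM3 at 1911, CG15065 at 1365, CG18107 at 1264 and CG16836 at 502 CPM per kilobase came next. IM23 came last there, at 62.4 ± 7.99 CPM per kilobase, behind CG5791 at 311 ± 28.4 and IM1 at 416 ± 2.52. In control heads CG15065 and CG18107 were the neighbors in the order whose libraries overlapped. The order depends on the annotated length: per kilobase of coding sequence IM3, whose exons span 769 bases for 117 coding bases, came first in both groups, at 86342 ± 556 CPM in yki S168A and 12563 ± 274 CPM in control heads.

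Each of the 10 members had a higher TMM-scaled CPM in yki S168A replicate 1 than in replicate 2. The ratio ran from 1.002 for IM23 to 1.56 for CG15065. Relative to library totals alone, IM2, IM3 and IM23 were slightly higher in replicate 2. IM3 had 167167 of 17311383 counts in yki S168A replicate 1 and 177221 of 18108814 in replicate 2. The share of all tested genes higher in replicate 1 was not computed. In the control libraries the ratio of scaled CPM, replicate 1 over replicate 2, ran from 0.989 for CG15068 to 1.46 for CG15065. The 4 members with the largest ratio between the yki S168A libraries were CG15065, CG15068 (1.55), CG5791 (1.5) and CG16836 (1.36), while IM1, IM2, IM3, CG18107 and CG15067 stayed between 1.01 and 1.11.

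Other genes of the Toll and Imd responses were read from lists. Of 10 further effector genes reported to respond to Toll, 7 rose and 1 fell, with a median log2 fold change of 2.00. Those with the highest CPM were IM4, which encodes the Daisho peptide Dso1, and the iron-binding transferrin gene Tsf1. IM4 had 18228 and 20802 CPM in yki S168A heads and 5714 and 5753 CPM in control heads, a log2 fold change of 1.77 (adjusted p = 0.000915), not called without control replicate 1 or 2 (highest adjusted p = 0.183). Tsf1 averaged 5266 ± 1972 CPM in yki S168A and 936 ± 29.3 CPM in control heads (SD, n = 2 each), 5.63-fold higher (adjusted p = 4.50e-05). The antimicrobial peptide gene Def was the 1 that fell, at 26.0 ± 8.003 CPM in yki S168A and 45.6 ± 15.96 CPM in control heads (adjusted p = 0.0423), a call lost in 3 other fits (highest adjusted p = 0.402).

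Of 15 tested effector genes of the parallel Imd pathway, which answers chiefly to Gram-negative bacteria, 7 rose, none fell and 8 were not called. The share that rose was 46.7%, beside 15.1% of all tested genes, and the median log2 fold change was 1.19. Those that rose were PGRP-LB, CecB, AttB, AttA, CecA1, CecC and CecA2. Their folds ran from 2.65 for CecA2 (adjusted p = 0.00352) to 12.1 for PGRP-LB (adjusted p = 5.17e-07). The 2 genes of the whole list with the highest CPM were not called, and this depended on single libraries. Dro, which encodes the antibacterial peptide drosocin, was at 930 ± 453 CPM in yki S168A and 471 ± 353 CPM in control heads (adjusted p = 0.126), and PGRP-SB1, which encodes a peptidoglycan-degrading protein, at 127 ± 87.6 CPM in yki S168A and 228 ± 39.2 CPM in control heads (adjusted p = 0.100). The spread between libraries was wide for both. Dro passed the test, at a log2 fold change of 2.07, in the absence of control replicate 2 (adjusted p = 7.94e-05), and also without yki S168A replicate 2 (adjusted p = 0.0239) and with the replicate numbers as a block (adjusted p = 1.50e-05). PGRP-SB1 was called lower without yki S168A replicate 1 (log2 fold change −1.81, adjusted p = 1.02e-05), without control replicate 1 (adjusted p = 0.0290) and with the block (adjusted p = 4.16e-07).

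Upstream of the receptor, 6 of 12 tested recognition and protease genes rose and none fell (median log2 fold change 0.87). PGRP-SA, a circulating sensor of Gram-positive peptidoglycan, averaged 690.3 ± 265 CPM in yki S168A and 24.4 ± 0.87 CPM in control heads, 28.3-fold higher (adjusted p = 3.43e-07). The serpin gene nec, which encodes an inhibitor of the cascade, rose 2.21-fold (adjusted p = 0.000363). From the receptor inward, 5 of 14 genes rose and none fell (median 0.25), and the count was 1 under upper-quartile scaling, under library totals alone or without control replicate 2, 2 without control replicate 1 and 3 with no filter. Those with the highest CPM were Uev1A, which encodes a ubiquitin-conjugating enzyme variant (log2 fold change 0.44, adjusted p = 0.0325), and cact, which encodes the IkappaB protein that holds Dif and Dorsal in the cytoplasm (0.51, adjusted p = 0.0194). Both calls were lost under those 2 scalings, without control replicate 1 (adjusted p = 0.246 for Uev1A and 0.238 for cact) and without control replicate 2 (0.193 for Uev1A and 0.0873 for cact), and that of Uev1A also with no filter (0.0528). Among these genes dl, which encodes Dorsal, had the lowest adjusted p. It was at 67.2 ± 5.46 CPM in yki S168A and 30.2 ± 6.64 CPM in control heads, 2.23-fold higher (adjusted p = 0.000881). Dif was not called (adjusted p = 0.347). All these shares stand beside the 15.1% of all genes called higher.

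**Figure D3:**
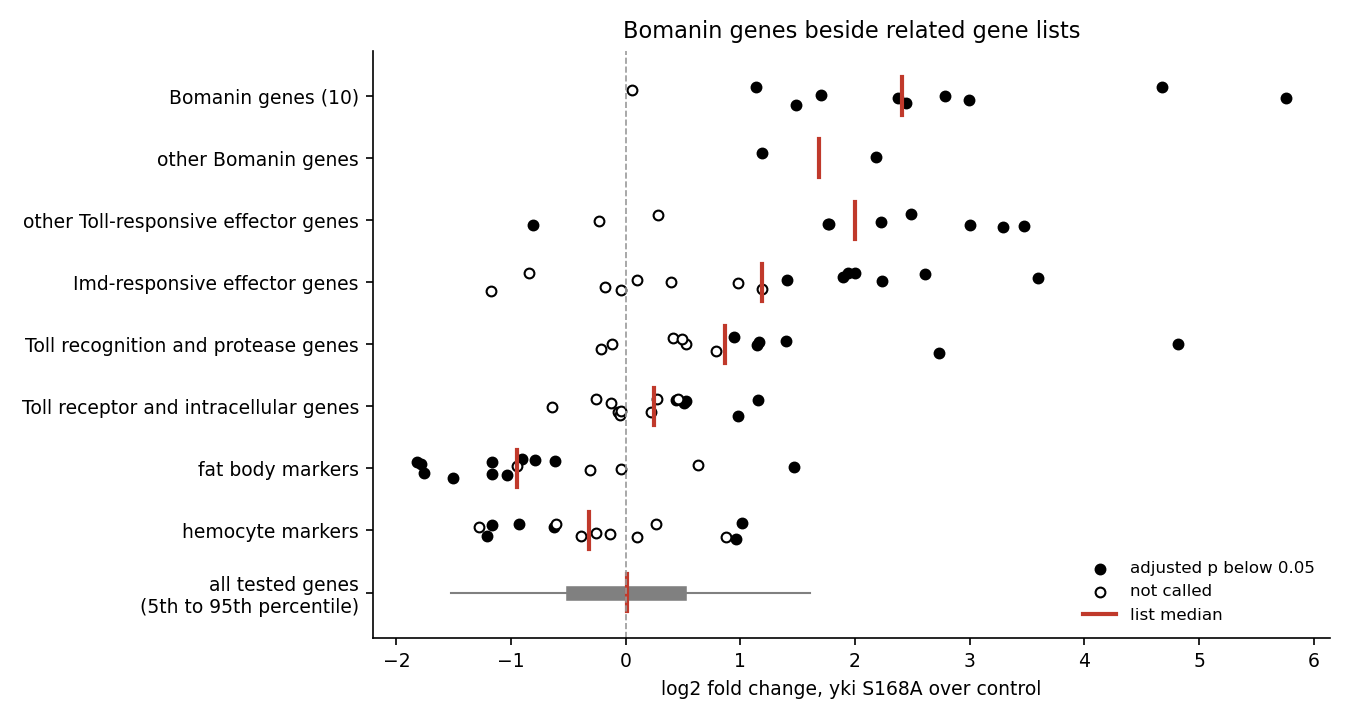
Log2 fold change (yki S168A over control) of each tested gene in the Bomanin set and in 7 related lists, filled where the adjusted p was below 0.05, with the median of each list as a red bar and the 5th to 95th percentile of all tested genes at the bottom. The Bomanin median is 2.41, that of other Toll-responsive effectors 2.00, that of Imd-responsive effectors 1.19 and that of fat body markers −0.94.

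Markers of the fat body, the main source of Bomanins, went the other way. Of 15 tested, 10 fell and 1 rose (median log2 fold change −0.94), beside 12.5% of all tested genes called lower and 15.1% called higher, and none was without counts. Their summed level was 25188 and 15507 CPM in yki S168A heads and 62030 and 72283 CPM in control heads, most of it from the yolk protein genes. The labels give no sex, and the sex mix of the heads cannot be told apart from other effects on the yolk protein values. Yp2 averaged 8444 ± 2950 CPM in yki S168A and 29110 ± 4265 CPM in control heads, and Yp1 averaged 6224 ± 1556 CPM in yki S168A and 21978 ± 2821 CPM in control heads. Both calls (adjusted p = 0.00352 for Yp2 and 0.00148 for Yp1) were lost without control replicate 1 or without control replicate 2 (highest adjusted p = 0.155 for Yp2 and 0.0920 for Yp1). Fbp1 was the 1 that rose, at 29.6 ± 21.1 CPM in yki S168A and 10.9 ± 7.37 CPM in control heads (adjusted p = 0.0483), a call lost in 10 of 14 other fits. Of 14 tested hemocyte markers, 2 rose, a share of 14.3% beside 15.1% of all tested genes, and 4 fell, beside 12.5% of all tested genes. Their summed level was 422.5 and 392.15 CPM in yki S168A heads and 383 and 366 CPM in control heads. The scavenger receptor gene crq was at 150 ± 20.6 CPM in yki S168A and 125 ± 19.6 CPM in control heads (adjusted p = 0.259), and the phagocytosis receptor gene NimC4 rose 2.02-fold (adjusted p = 0.00101). The transcription factor gene lz rose 1.95-fold (adjusted p = 0.0354), a call lost in 4 of 14 other fits. The 4 hemocyte markers that fell were Hml (log2 fold change −1.21, adjusted p = 0.00477), PPO2 (−1.17, adjusted p = 0.00424), Sr-CI (−0.93, adjusted p = 0.0460) and Pxn (−0.63, adjusted p = 0.0152). The median of the hemocyte list was −0.32. The part of these tissues in the Bomanin results was not tested.

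The head label held against its markers. All 15 eye and neuron markers were counted, and 13 were lower in yki S168A heads, beside 12.5% of all tested genes, with the arrestin gene Arr2 at 867 ± 98.1 CPM in yki S168A and 3191 ± 249.9 CPM in control heads and the rhodopsin gene ninaE at 1002 ± 151 CPM in yki S168A and 2371 ± 128 CPM in control heads. Their summed level was 4807 and 5634 CPM in yki S168A heads and 13047 and 12707 CPM in control heads. Midgut markers summed to 65.2 and 32.5 CPM in yki S168A heads and 31.6 and 26.0 CPM in control heads, and gonad and accessory gland markers to 7.59 and 7.26 CPM in yki S168A heads and 5.88 and 11.5 CPM in control heads. The driven gene, yki, was at 32.2 and 27.2 CPM in yki S168A heads and 12.4 and 18.4 CPM in control heads. It was 1.93-fold higher (adjusted p = 0.0112), a call not followed over the other fits. Whether the transgene's transcripts carry all counted parts of yki is not given in the sources used here. Library totals ran from 15738860 to 18108814 counts, and the lowest count of any member in any library was 433.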

How the data were processed

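Each library came from the total RNA of 30 adult heads and was prepared with the Lexogen SENSE kit for mRNA, per the labels' protocols. Raw read counts by gene symbol, in 1 table for each of the 4 libraries, are as the authors deposited them. The genome build is dm6 according to the submitters' processing notes. Not given in the sources used here: aligner, counter, annotation, strand setting and the handling of multiply matching reads. The 37 lines sharing 17 symbols were summed. Current names, coordinates and exons came from the Ensembl release 115 annotation, in dm6 coordinates, and from RefSeq names, which together matched 16271 of 16489 symbols. No genome sequence was used here, so no sequence is printed and no motif was searched.

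Genes kept by filterByExpr (10896) were fitted with edgeR 4.0.16 (R 4.3.3): TMM scaling, estimateDisp, glmQLFit and glmQLFTest with group as the term and Benjamini-Hochberg adjustment over all tested genes. SE is the absolute log2 fold change over the root of F, and 95% intervals use the fitted degrees of freedom. Intervals cover counting error and the fitted spread between these libraries, no more. Members, lists and tests were chosen with earlier results of these data known. Named were all Bomanin genes, the 2 most abundant tested genes of each list and those called against its majority, tested genes within 20000 bases of the cluster, and the 5 nearest profiles. The 4 hemocyte markers that fell, the 7 Imd-responsive genes that rose, dl, Dif and yki were named too. They are not among the 39 other named genes counted below. Midgut and gonad markers are given as sums.

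Alternatives were RLE, upper-quartile and no scaling factors, leaving out the 19 non-member genes among the 20 most abundant, no filter, a mean of at least 10 CPM, DESeq2 1.42.0, limma-voom (limma 3.58.1), an adjusted p below 0.01, a replicate block and each library left out. A legacy quasi-likelihood fit, and the application of all of these to genes and lists beyond the members, were added after seeing the data.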

Additional observations from a re-analysis of the deposited data

How the results depend on the processing

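Over the 14 other fits, 135 of 140 values for the 10 members kept direction and side of the threshold. The log2 fold change of CG15067 kept its direction but missed the threshold without control replicate 1 and without control replicate 2, and that of CG15068, called in no fit, was −0.10 with upper-quartile factors, −0.056 with library totals alone, and from −0.30 to 0.34 with 1 library left out. The members called higher numbered 9 in every fit to all 4 libraries and 8 without control replicate 1 or control replicate 2. With the replicate block the number was 9, while genes called over the whole table were 3626 with it and 3006 without; deviations of same-numbered libraries correlated at 0.02, so the numbers are not taken to pair the samples. Genes called were 1691 at an adjusted p below 0.01, and from 1747 (without control replicate 1; 1838 without control replicate 2) to 3245 (without yki S168A replicate 2) when 1 library was left out, where a lone library is assumed to vary like the other group. Among 39 other named genes, 475 of 537 values kept direction and side, 49 missed the threshold, 9 newly passed and 4 turned: the germline gene twe was −0.0016 with upper-quartile factors and from −0.47 to 1.22 with 1 library left out, the germline gene nos from −0.90 to 0.20, and Idgf5, which flanks the cluster, from −0.19 to 0.79. The number of libraries, 2 a group, limits the precision of the members' values, and the lowest member count was 433.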

Other observations

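Genes flanking the 2R cluster were examined within 20000 bases. Of 17 annotated there that are not Bomanins, 11 were tested, of which 6 were higher and 1 lower in yki S168A heads, beside 15.1% of all tested genes called higher and 12.5% called lower. None lies inside the cluster. The nearest tested gene, the chitinase-like growth factor gene Idgf5, 3037 bases away, was at 30.5 ± 13.98 CPM in yki S168A and 23.3 ± 0.99 CPM in control heads (SD, n = 2 each, edgeR adjusted p = 0.345). The called genes belong to the glutathione S-transferase E family, whose enzymes conjugate glutathione to toxic compounds. GstE1 was 4.67-fold, GstE6 7.54-fold, GstE7 6.33-fold, GstE8 5.61-fold, GstE3 2.06-fold and GstE5 2.00-fold higher. GstE4 was lower, at 0.466 ± 0.144 CPM in yki S168A and 2.13 ± 0.109 CPM in control heads (adjusted p = 0.0396), a call lost in 8 of 13 other fits. GstE2 (adjusted p = 0.0676), GstE9 (0.441) and imd, which encodes the adaptor of the Imd pathway (log2 fold change 0.27, adjusted p = 0.310), were not called. GstE3 lost its call without yki S168A replicate 1 and GstE5 without control replicate 1 (adjusted p = 0.0736 and 0.100).

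By the Euclidean distance of centred log2(CPM + 1) profiles over the 4 libraries, the genes closest to the median profile of the members, among 6673 candidates with a mean of at least 10 CPM, were CG44325 (0.0803), CG7675 (0.0879), CG5002 (0.115), CG9422 (0.131) and CG43780 (0.132). Their log2 fold changes ran from 2.31 for CG7675 to 2.57 for CG43780. Within the set, IM2 (0.204) and CG5791 (0.211) were nearest to that median and IM23 (3.36) farthest. The distance takes in the difference between the groups as well as that between replicates.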
